A study of Mus musculus with 6 samples.

Results

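The kidney makes and breaks down its own monoamines, and 7 genes of this metabolism were followed in db/db mice, a model of diabetes, with db/m mice as controls. The genes were chosen by name, for their roles, and not by a threshold on their values, but with earlier results of these data known. The study had already listed Maoa and Maob among the genes higher in db/db mice. It also reported Maob mRNA as higher in db/db mice by qPCR, whose values are not used here. The 7 genes include Maoa and Maob, which encode monoamine oxidases A and B, and Ddc, which encodes the decarboxylase that makes dopamine. The others are Rnls and Aoc3, which encode other amine-related oxidases, and Gch1 and Qdpr, which supply the cofactor tetrahydrobiopterin. All 7 have a probe set of their own, exactly 1 each, among the 22180 genes of the deposited table.

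Kidney RNA was hybridized to 6 Affymetrix arrays, which the labels give as biological replicates, 3 of db/db mice and 3 of db/m mice, and each was taken as 1 mouse. All 6 were males on the C57BL/KsJ background, bought at 10 weeks of age, kept for 12 weeks on standard chow and killed at 22 weeks. The db/db mice carry the leptin receptor mutation on both chromosomes, and their responses to leptin are defective. Obesity, insulin resistance and high blood glucose therefore come together in this model. The db/m mice were littermates without diabetes, and the labels do not spell out their second allele. The labels call the tissue kidney, whereas renal cortex is given in the methods. Each value below is an RMA signal on the log2 scale, so that a difference of 1 is a doubling.

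Dopamine is made in the proximal tubule from filtered L-DOPA, largely without nerves, and acts on nearby tubule cells to lower sodium reabsorption. It is broken down by the monoamine oxidases, which sit on the outer mitochondrial membrane and release hydrogen peroxide, and by catechol-O-methyltransferase. Monoamine oxidase A prefers serotonin and noradrenaline, monoamine oxidase B prefers phenylethylamine, and both accept dopamine. Tetrahydrobiopterin is needed by the hydroxylases that begin amine synthesis and by nitric oxide synthases.

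The arrays were alike in brightness, with medians over all probe sets of 3.36 to 3.398 in db/db mice and 3.36 to 3.43 in db/m mice. The labelled tissue was checked against 8 proximal tubule markers, whose mean signal was 11.05 to 11.13 in db/db mice and 11.00 to 11.16 in db/m mice. None of the 8 lay below the median gene. All 8 markers of the adrenal gland, an organ that makes catecholamines beside the kidney, did, with a mean signal of 2.74 to 2.92 in db/db mice and 2.79 to 2.88 in db/m mice. In whole tissue, fewer cells of a type and less RNA per cell cannot be told apart.

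Maob rose 2.83-fold in db/db mice. Maoa had a fold change of 1.59 and Rnls one of 0.781, neither of which passed the test across all genes. Ddc, Aoc3, Gch1 and Qdpr had groups that overlapped. At a Benjamini-Hochberg adjusted p under 0.05 from limma, 1 of the 7 genes was called higher and 0 lower, where 0.482% of all genes were called in either direction. At an unadjusted p under 0.05 from limma, 2 of the 7 were higher and 1 was lower, where 5.92% of all genes were higher and 4.7% lower. The thresholds of the study are at least a 1.5-fold change together with p under 0.05 before adjustment. They were applied here to the p of limma, not to that of the study's one-way test. By them, 2 of the 7 were higher, where 1.02% of all genes passed as higher and 1.83% in either direction. With the unadjusted p of the methods' t-test, 2 of the 7 also passed. The groups did not overlap for 3 of the 7, against 16.8% of all genes. Since the 7 were chosen with earlier results known, these counts are descriptive and are no test of the pathway. The median log2 fold change was 0.09 over the 7 genes and 0.01 over all genes.

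**Figure D1:**
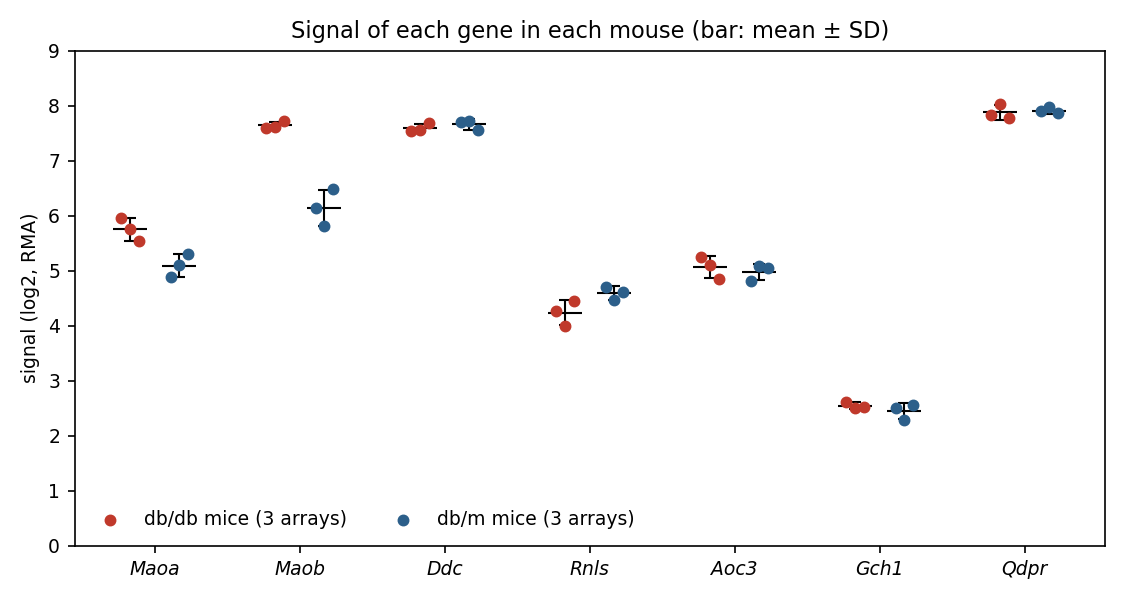
Signal of each gene on the log2 scale (y axis) in each of 3 db/db mice (red, left) and 3 db/m mice (blue, right), with black bars for the mean ± SD. The 3 db/db signals of Maob, 7.59 to 7.71, lie well above the 3 db/m signals, 5.81 to 6.48. Heights of different genes are not comparable, since each has its own probes.

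Maob, monoamine oxidase B, had signals of 7.59, 7.62 and 7.71 in the 3 db/db mice, against 6.13, 5.81 and 6.48 in the 3 db/m mice. The db/db mice were nearly alike, whereas the db/m mice spread over a wider range, and the lowest db/db signal was 1.11 above the highest db/m signal. The means were 7.64 ± 0.06 in db/db mice and 6.14 ± 0.33 in db/m mice (SD, n = 3 each). The log2 fold change was 1.499 (standard error 0.16, limma adjusted p = 0.00654), a fold change of 2.83 with a 95% interval of 2.20 to 3.63. It was the rise ranked 6 in size among all genes. Maob was called in all 6 fits that leave out 1 mouse, with a log2 fold change from 1.33 (without db/m replicate 2) to 1.67 (without db/m replicate 3) and an adjusted p from 0.0126 to 0.038. It did not pass when each gene's own spread was used, as in the methods' t-test (adjusted p = 0.33), or when the fit took in all probe sets (limma adjusted p = 0.0922).

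Maoa, monoamine oxidase A, had signals of 5.96, 5.76 and 5.55 in db/db mice, against 4.88, 5.10 and 5.30 in db/m mice. The groups did not overlap, but the lowest db/db mouse was only 0.25 above the highest db/m mouse. The means were 5.76 ± 0.21 in db/db mice and 5.09 ± 0.21 in db/m mice (SD, n = 3 each), a log2 fold change of 0.67 (standard error 0.15). The change passed the thresholds of the study (limma unadjusted p = 0.00129) but not the adjusted test (limma adjusted p = 0.118). Its fold change of 1.59 had a 95% interval of 1.26 to 1.99. Without db/db replicate 1 or without db/m replicate 1 the change was under 1.5-fold, with a lowest log2 fold change of 0.56 in the fit without db/m replicate 1.

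Both oxidases were also set against each other. The signal of Maob minus that of Maoa in the same mouse, a measure chosen after the values were seen, was 1.63, 1.85 and 2.17 in db/db mice, against 1.25, 0.71 and 1.18 in db/m mice. The groups did not overlap. The means were 1.89 ± 0.27 in db/db mice and 1.05 ± 0.29 in db/m mice (SD, n = 3 each), a difference of 0.83 (p = 0.1 by a two-sided exact permutation test, which cannot give a lower p with groups of 3). With 1 mouse left out the difference was lowest without db/m replicate 2, at 0.67, and highest without db/db replicate 1, at 0.96.

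Maoa and Maob lie next to each other on the X chromosome, with 0 annotated genes between them in the RefSeq table of GRCm38.p6. Among the 5 nearest measured genes on each side, looked up after the values were seen, 0 passed the thresholds of the study, and log2 fold changes ran from -0.20 to 0.49. Over all genes, 1.83% passed those thresholds in either direction. All of these neighbours but Fundc1 had group means below the median gene (4.36), where RMA compresses differences. Their values therefore cannot show whether the rise is confined to Maoa and Maob. The highest log2 fold change was that of Efhc2, which lies beyond Maob and encodes an EF-hand protein. Its mean signal was 4.26 in db/db mice and 3.77 in db/m mice (limma unadjusted p = 0.0105 and adjusted p = 0.279). The groups of Efhc2 did not overlap, with db/db mice higher.

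The promoter of Maoa is shown because Maoa passed the thresholds of the study and RefSeq gives a start site for it. It covers 250 bases before and 50 after the annotated start (RefSeq, GRCm38.p6, chrX:16619448-16619747, + strand), printed 5′ to 3′ with GC boxes in capitals:
Maoa: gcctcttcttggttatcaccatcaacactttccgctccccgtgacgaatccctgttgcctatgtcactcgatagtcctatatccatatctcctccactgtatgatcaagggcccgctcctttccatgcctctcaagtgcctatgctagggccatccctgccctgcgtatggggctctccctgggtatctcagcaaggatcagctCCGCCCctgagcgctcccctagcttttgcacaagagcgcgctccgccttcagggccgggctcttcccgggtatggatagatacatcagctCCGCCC
The GC box, the letters GGGCGG on either strand, is the site that Sp1 family factors bind. The window holds 2, both on the opposite strand, with first bases at -46 and 44 when the start base is counted as 0. At least 1 GC box is found in 35.7% of the 32851 promoter windows of this length in the table. A TATA box, TATAAA on either strand, occurs 0 times in the window and in 13.6% of all windows. These matches describe the letters and were not tested for binding. Of the other genes, Ddc has 2 start sites in the table and Gch1 and Qdpr have 1 each, while Maob, Rnls and Aoc3 were not matched.

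Amine synthesis showed no detectable difference. Ddc encodes aromatic amino acid decarboxylase, which turns L-DOPA into dopamine and 5-hydroxytryptophan into serotonin. Its signals were 7.55, 7.57 and 7.69 in db/db mice, against 7.70, 7.72 and 7.55 in db/m mice. The groups overlapped. Its log2 fold change was -0.06 (standard error 0.10, limma adjusted p = 0.881), and its 95% interval of -0.29 to 0.18 lies inside a 1.5-fold change in both directions. The probe set was not resolved by start site, so the 2 annotated starts cannot be told apart.

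Rnls encodes renalase, a flavoprotein oxidase abundant in kidney, whose proposed role in breaking down circulating catecholamines is disputed. RefSeq lists it as a transcribed pseudogene in this mouse assembly. Its signals were 4.27, 3.99 and 4.45 in db/db mice, against 4.70, 4.46 and 4.62 in db/m mice. The groups did not overlap, but by a margin of only 0.009, between db/db replicate 3 and db/m replicate 2. With all mice the log2 fold change was -0.36 (standard error 0.14), with a 95% interval of -0.66 to -0.05. It had an unadjusted p of 0.0278 and an adjusted p of 0.389 from limma. It kept a negative sign in all 6 fits that leave out 1 mouse, with -0.46 when db/db replicate 3 was left out and -0.23 when db/db replicate 2 was, and passed an unadjusted p under 0.05 in 2 of them.

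Aoc3 encodes vascular adhesion protein 1, a copper amine oxidase on the surface of endothelial cells, smooth muscle and fat cells that deaminates primary amines. Its signals were 5.25, 5.11 and 4.86 in db/db mice, against 4.82, 5.08 and 5.04 in db/m mice. The highest and the second lowest signals were both in db/db mice. The log2 fold change was 0.09 (standard error 0.13, limma adjusted p = 0.85), with a 95% interval of -0.21 to 0.39. Markers of the cells that make this enzyme were measured beside it. The 5 smooth muscle markers had a mean signal of 6.73 to 7.0 in db/db mice and 6.64 to 6.87 in db/m mice. The 5 endothelial markers had 8.13 to 8.23 in db/db mice and 8.10 to 8.22 in db/m mice. The 5 measured adipocyte markers had 4.14 to 4.47 in db/db mice and 4.27 to 5.30 in db/m mice, the highest being db/m replicate 2, and 4 of the 5 lay below the median gene. Median log2 fold changes were 0.21 for smooth muscle (4 of 5 positive), -0.04 for endothelial (2 of 5) and -0.25 for adipocyte markers (0 of 5). The groups did not overlap for 2 of the 5 smooth muscle markers, both higher, against 16.8% of all genes. They did not overlap for 0 of the endothelial and 0 of the adipocyte markers. The part of these markers in the signal of Aoc3 was not tested.

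The cofactor genes did not differ detectably. Gch1 encodes GTP cyclohydrolase, the rate-limiting enzyme of tetrahydrobiopterin synthesis. Its signals were 2.62, 2.51 and 2.51 in db/db mice, against 2.50, 2.28 and 2.56 in db/m mice. All 6 lay below the medians of the arrays, where RMA compresses differences. For Gch1 the log2 fold change was 0.10 (standard error 0.11, limma adjusted p = 0.793), with a 95% interval of -0.15 to 0.35. Qdpr encodes dihydropteridine reductase, which returns the spent cofactor to its active form. Its signals were 7.84, 8.04 and 7.78 in db/db mice, against 7.90, 7.97 and 7.86 in db/m mice. The db/m signals all lay within the range of the db/db signals. For Qdpr the log2 fold change was -0.03 (standard error 0.11, limma adjusted p = 0.951), with a 95% interval of -0.27 to 0.22, and its sign turned in 2 of the 6 fits that leave out 1 mouse.

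**Figure D2:**
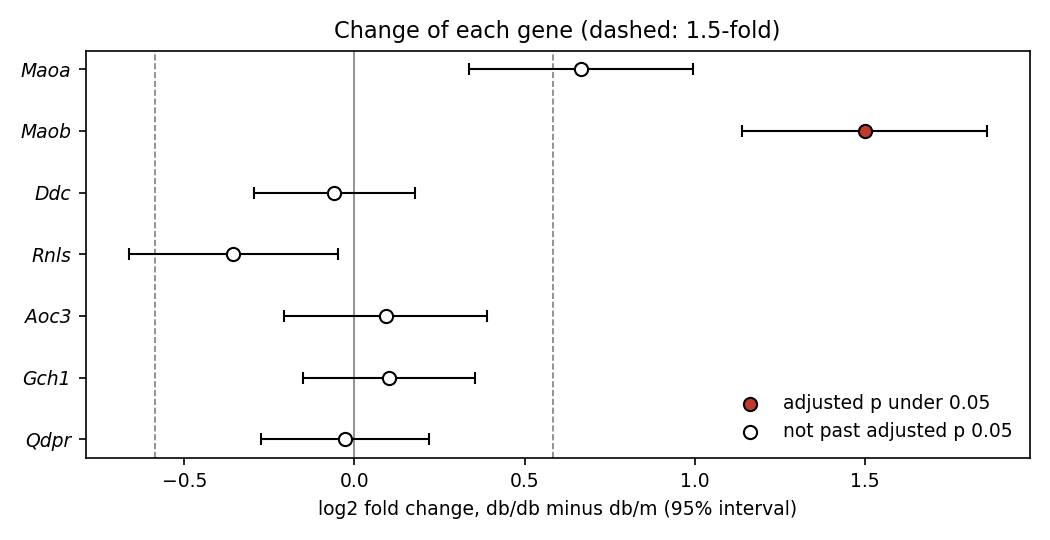
Log2 fold change of each gene, db/db minus db/m (x axis), with its 95% interval from limma and dashed lines at a 1.5-fold change. Maob, at 1.499, is the only gene past an adjusted p of 0.05 (filled), and the intervals of Ddc, Aoc3, Gch1 and Qdpr hold 0 and end inside the dashed lines.

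**Figure D3:**
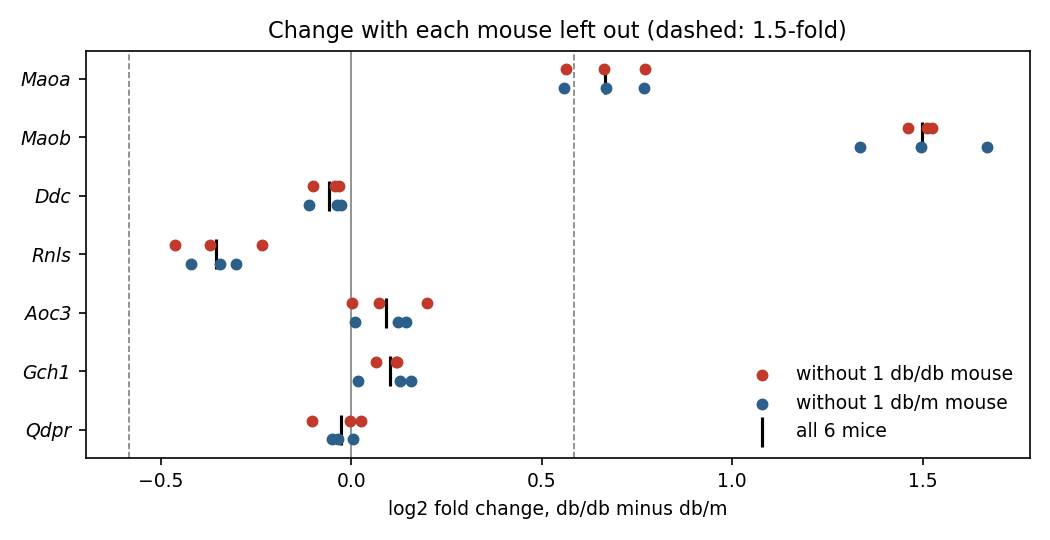
Log2 fold change of each gene, db/db minus db/m (x axis), with all 6 mice (black) and with 1 db/db mouse (red) or 1 db/m mouse (blue) left out. Maob stays between 1.33 and 1.67, Maoa between 0.56 and 0.77 across the 1.5-fold line, and Qdpr lies on both sides of 0.

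Around these 7 genes, 69 further genes were listed, for amine synthesis, breakdown, transport and signalling, for the supply and use of tetrahydrobiopterin and for sodium transport, and 55 were measured by a probe set that names them alone. Of these, 1 was called higher and 0 lower by limma, against 0.482% of all genes. The called gene was Agmo, which uses tetrahydrobiopterin but does not act on amines. At the thresholds of the study, 2 were higher and 0 lower, against 1.02% of all genes as higher and 1.83% in either direction. The groups did not overlap in 15 of them, 10 higher and 5 lower, against 16.8% of all genes. Their median log2 fold change was 0.03. The same shares over all genes are the background of the counts given below for each list. At such shares, lists this short hold too few genes for a count of 0 to be informative.

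The other enzymes that begin or finish amine synthesis gave low signals. Th, Dbh, Pnmt, Tph1 and Tph2, which make catecholamines and serotonin in nerves and endocrine cells, had signals of 1.83 to 3.17 over all 6 mice, below the medians of the arrays. Of the 8 synthesis genes measured, 0 passed either threshold, and log2 fold changes ran from -0.15 to 0.15. Asmt, the last enzyme of melatonin synthesis, was the only one of the 8 above the median gene, with 4.86 ± 0.18 in db/db mice and 5.02 ± 0.14 in db/m mice (SD, n = 3 each; limma adjusted p = 0.719).

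In the tetrahydrobiopterin pathway, 5 other genes were measured and 0 passed either threshold. Pcbd1, which recycles the cofactor after each hydroxylation, had 11.52 ± 0.06 in db/db mice and 11.52 ± 0.05 in db/m mice (SD, n = 3 each; limma adjusted p = 0.988). Gchfr, which encodes the feedback regulator of GTP cyclohydrolase, had 7.59 ± 0.33 in db/db mice and 7.82 ± 0.37 in db/m mice (SD, n = 3 each; limma adjusted p = 0.743). Among 7 measured enzymes that use the cofactor, 1 was called, against 0.482% of all genes. Agmo, an alkylglycerol monooxygenase that cleaves ether lipids, had signals of 7.68, 7.74 and 7.496 in db/db mice, against 6.58, 6.84 and 6.44 in db/m mice. The lowest db/db mouse was 0.66 above the highest db/m mouse. Agmo rose by a log2 fold change of 1.02 (standard error 0.13, limma adjusted p = 0.0137), with a call in 2 of the 6 fits that leave out a mouse, those without db/db replicate 3 and without db/m replicate 2. The nitric oxide synthase genes Nos1, Nos2 and Nos3 had log2 fold changes of -0.05, 0.02 and -0.02.

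Of 12 other breakdown enzymes measured, which do not include catechol-O-methyltransferase, 0 were called and 1 passed the thresholds of the study. Over all genes, 0.482% were called and 1.83% passed those thresholds in either direction. Aoc1 encodes diamine oxidase, which oxidizes histamine and putrescine. Its signals were 6.33, 6.15 and 6.63 in db/db mice, against 5.71, 5.71 and 5.40 in db/m mice. All db/db mice lay above all db/m mice, by at least 0.435. The log2 fold change was 0.76 (standard error 0.15, limma unadjusted p = 0.00055 and adjusted p = 0.0809). The adjusted p was 0.0495 when dim genes were left out, 0.127 after quantile normalization and 0.174 with the replicate block. Aldh3a2, a fatty aldehyde dehydrogenase named after its values were seen, had signals of 8.11, 8.16 and 8.03 in db/db mice, against 8.49, 8.68 and 8.66 in db/m mice. The groups did not overlap, and the log2 fold change was -0.51 (limma adjusted p = 0.095). The adjusted p of Aldh3a2 was 0.0491 when dim genes were left out, 0.0411 with trend and robust variances and 0.19 with the replicate block. Other aldehyde-handling enzymes gave smaller values. Aldh9a1, which oxidizes aminoaldehydes, had a log2 fold change of -0.11 (limma adjusted p = 0.745), and Akr1a1, an aldehyde reductase, one of -0.0032 (limma adjusted p = 0.996). Inmt, which methylates tryptamine and other indole amines, had 11.01, 10.81 and 9.96 in db/db mice, against 11.03, 11.04 and 11.17 in db/m mice. Its db/db replicate 3 was low, and its log2 fold change of -0.49 with all mice was -0.17 without that mouse.

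Receptor genes gave low signals. The dopamine receptor genes Drd1 to Drd5 had group means of 2.14 to 3.96, all below the median gene, and log2 fold changes of -0.23 to 0.35 (lowest limma adjusted p = 0.488). Adra1b, an adrenergic receptor that raises intracellular calcium, had a mean of 4.47 in db/db mice and 4.17 in db/m mice (limma adjusted p = 0.591). Of 14 receptor genes listed, 7 were measured and 0 passed either threshold.

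Amine transporters had a median log2 fold change of -0.22 over 8 measured genes, against 0.01 over all genes, and 0 passed either threshold. Of the 8, 6 had negative and 2 positive log2 fold changes. The median rests in part on dim genes, since 4 of the 8 lay below the median gene. Slc22a2, an organic cation transporter of the basolateral tubule membrane that carries dopamine, had signals of 10.46, 10.45 and 10.39 in db/db mice, against 10.85, 10.93 and 10.98 in db/m mice. All db/db mice lay below all db/m mice, and the log2 fold change was -0.49 (standard error 0.10, limma adjusted p = 0.0891). For Slc22a2 the adjusted p was 0.043 when dim genes were left out, 0.012 with trend and robust variances and 0.199 with the replicate block. Slc6a4, the serotonin transporter, lay the other way, with 6.73, 7.03 and 6.74 in db/db mice, against 6.33, 6.51 and 6.44 in db/m mice (log2 fold change 0.41, limma adjusted p = 0.242). Slc18a1, a vesicular monoamine transporter, and Slc47a1, a cation exporter of the brush border, had log2 fold changes of -0.25 and -0.15 (limma adjusted p = 0.601 and 0.684).

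The uptake of L-DOPA and the transport of sodium were looked at through 2 short lists. Of 6 amino acid carriers reported to take up L-DOPA, 0 passed either threshold and 5 had positive log2 fold changes, with a median of 0.12. The values ran from -0.08 to 0.55. The highest was that of Slc7a5 (limma unadjusted p = 0.0507 and adjusted p = 0.472), whose groups overlapped. Slc7a8, a subunit of a neutral amino acid exchanger, had 11.09 ± 0.09 in db/db mice and 11.00 ± 0.09 in db/m mice (SD, n = 3 each; limma adjusted p = 0.819). Of 5 measured transporters on which dopamine is known to act, 4 had groups that did not overlap, all higher in db/db mice, against 16.8% of all genes in either direction, and 0 passed either threshold. The log2 fold changes of the 5 ran from 0.00 to 0.35, the highest being that of Slc34a3 (limma unadjusted p = 0.0189 and adjusted p = 0.339). The gaps between groups were narrow, the widest being 0.064 for Atp1b1. Atp1b1, a subunit of the sodium pump, had 11.96, 11.81 and 11.90 in db/db mice, against 11.72, 11.75 and 11.69 in db/m mice (log2 fold change 0.17, limma adjusted p = 0.586). Slc9a3, the sodium-hydrogen exchanger of the proximal tubule, had a log2 fold change of 0.10 (limma adjusted p = 0.784), and its groups all but touched.

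**Figure D4:**
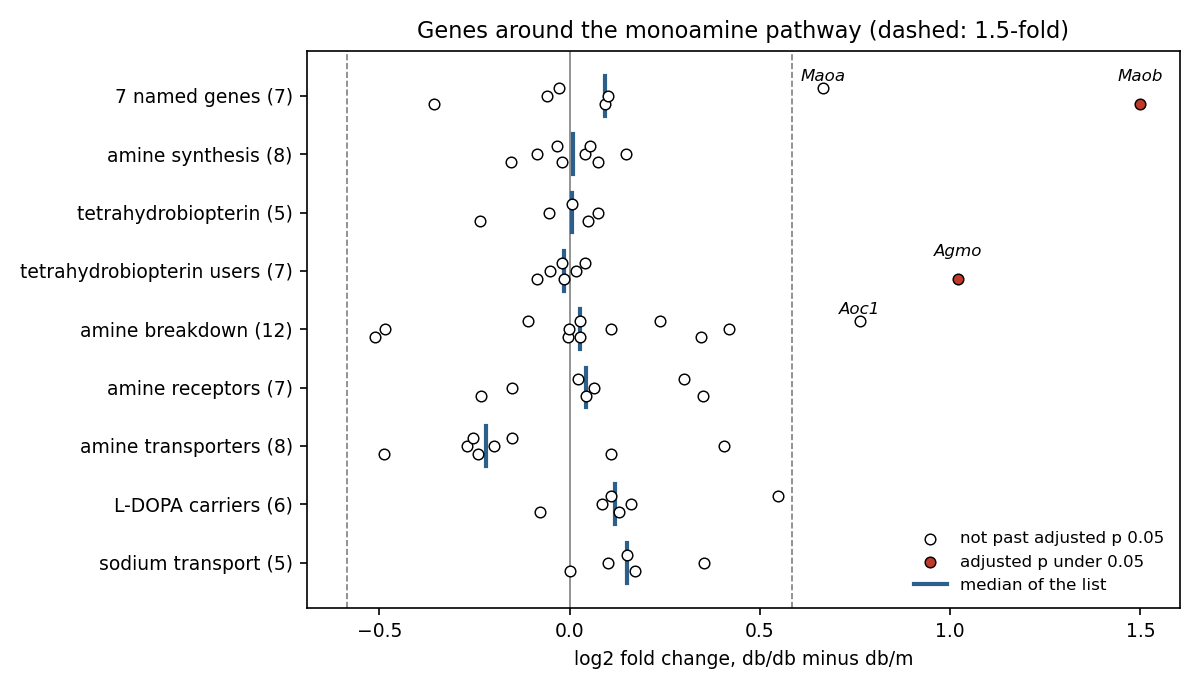
Log2 fold change of each measured gene, db/db minus db/m (x axis), by list (rows, number of genes in brackets; a gene may be in more than 1 list), with the list median in blue and dashed lines at a 1.5-fold change. Names mark genes past the thresholds of the study, which are Maoa, Maob, Agmo and Aoc1, all to the right of the dashed line, and filled points passed the adjusted test.

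The genes whose pattern over the 6 mice was closest to that of Maob were found by the root mean square difference of their mean-centred signals. Among genes brighter than the median gene they were Xpnpep2, a membrane aminopeptidase (0.23 on the log2 scale), Acsf2, an acyl-CoA synthetase (0.28), and Mtarc1, an amidoxime reductase (0.30). Their log2 fold changes were 1.20, 0.95 and 1.31 (limma adjusted p = 0.0137, 0.0355 and 0.027). Genes picked for likeness to Maob or Maoa in the same mice rise with them by choice, so their p-values are no separate evidence. Xpnpep2 was called in 4 of the 6 fits with a mouse left out, failing without db/db replicate 1 (adjusted p = 0.0733) and without db/db replicate 3 (0.0554), and Acsf2 and Mtarc1 were called in 1 each, Acsf2 without db/m replicate 3 and Mtarc1 without db/db replicate 3. Closest to Maoa were Gsta4, a glutathione transferase (0.07), Chp1, a calcium-binding protein (0.10), and Hsd3b3, a hydroxysteroid dehydrogenase (0.10), with log2 fold changes of 0.62, 0.60 and 0.84 that did not pass (limma adjusted p = 0.119, 0.152 and 0.081). Maoa itself was 0.48 away from Maob.

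Levels of cell type markers were set beside these values. The 6 markers of tubule segments beyond the proximal tubule all had positive log2 fold changes, with a median of 0.28, and a mean signal of 10.26 to 10.42 in db/db mice and 9.95 to 10.02 in db/m mice. Calb1, a calcium-binding protein of the distal tubule, passed the thresholds of the study, with a log2 fold change of 0.68 (limma adjusted p = 0.135), and 0 of the 6 passed the adjusted test. The 8 proximal tubule markers were split evenly, 4 positive and 4 negative, with a median of -0.01. The 6 leukocyte markers had a mean signal of 4.34 to 4.68 in db/db mice and 4.70 to 4.73 in db/m mice. Of these, 5 had negative log2 fold changes and 1 a positive one, with a median of -0.13. Cd3e, a subunit of the T cell receptor complex, had 4.20 ± 0.11 in db/db mice and 5.01 ± 0.25 in db/m mice (SD, n = 3 each; limma adjusted p = 0.0484). It was called lower with all 6 mice but in 0 of the 6 fits with a mouse left out (adjusted p from 0.0889 to 0.187), nor by the methods' t-test (adjusted p = 0.399). The log2 fold changes of the macrophage markers Csf1r and Cd68 were -0.48 and -0.21, those of Ptprc and Cd79a, markers of leukocytes and B cells, -0.04 and -0.03, and that of Itgam, a myeloid integrin, 0.18, none of them called. The part of these markers in the changes of Maob and Maoa was not tested.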

How the data were processed

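Kidney RNA of 3 db/db and 3 db/m mice was measured, 100 ng per array. The authors deposited log2 signals, 1 value for each of 41345 probe sets and 6 arrays, which the submitters' processing notes attribute to RMA in Affymetrix Expression Console. Versions and genome build are not given in the sources used here. RMA pulls low signals toward a common background, which compresses changes of dim genes. The methods name another array than the one whose annotation fits the probe-set identifiers, so genes were named from the fitting annotation. Of probe sets naming 1 gene, 23328 matched the RefSeq table of GRCm38.p6 by gene ID and 193 did not. Each gene was represented by its brightest probe set that names it alone.

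The main test was that of limma 3.58.1 under R 4.3.3, fitted to db/db minus db/m with moderated variances and no covariate, with Benjamini-Hochberg adjustment across 22180 genes. The thresholds of the study were applied to the unadjusted p of this test. The methods' t-test, equal to their one-way test for 2 groups, was an alternative, with quantile normalization, median centring, removal of genes below the median gene (4.36), trend and robust variances, probe-set means, a fit over all probe sets, the replicate number as a block, other thresholds, and each array left out. Arrays carry no counts, so 3 arrays per group limit the precision. The code was tested on simulated data.

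The 7 genes and all lists were chosen with earlier results of these data known. Other genes were named if they passed a threshold, were among the 4 brightest of a list, or resembled Maob or Maoa most. Aldh3a2, Efhc2, Slc7a5, Slc34a3 and the markers Calb1, Cd3e and other leukocyte genes fall outside this rule and were named after their values were seen. Some genes named only as part of a set also fall outside it. These are Dbh, Pnmt, Tph1 and Tph2, some of Drd1 to Drd5, and the neighbour Fundc1. List genes with no probe set of their own were not analysed here.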

Additional observations from a re-analysis of the deposited data

How the results depend on the processing

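Maob kept its rise of 1.46 to 1.499 on the log2 scale in every alternative with all 6 mice, and its call in all but the methods' t-test and the fit over all probe sets, where the number of the 7 genes called higher was 0. No member was called lower in any setting. The number of the 7 past the study's thresholds was 1 with a 2-fold threshold and 1 to 2 with a mouse left out, since Maoa fell under 1.5-fold without db/db replicate 1 or db/m replicate 1. Of 97 values of the 7 genes under alternatives, 2 had another sign than with the main setting, both of Qdpr. Gch1 has no value without dim genes.

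Over all genes, 107 were called, against 2 with the methods' t-test, 9 in the fit over all probe sets, 61 with the replicate block, 193 at an adjusted p under 0.1, and 28 (without db/db replicate 1) to 69 (without db/m replicate 2) with a mouse left out. The 6 named genes called by limma were Maob, Agmo, Xpnpep2, Acsf2, Mtarc1 and the marker Cd3e. Xpnpep2, Acsf2 and Mtarc1 had been picked for their likeness to Maob. Of the 6 genes, 0 passed an adjusted p under 0.05 with the methods' t-test or in the fit over all probe sets. The labels number the mice of each group but give no shared litter or batch. Same-numbered mice did not deviate together (r of 0.04, -0.05 and -0.08 over genes), and not every mouse correlated best with its own number. With the replicate block Maob kept its call (adjusted p = 0.0152) and 4 of the 6 passed, the exceptions being Mtarc1 (0.075) and Cd3e (0.0925). Cd3e also lost its call after quantile normalization (0.06) and median centring (0.0581).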
